A study of Mus musculus with 4 samples.

Results

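The genes of the constitutive proteasome, the complex that degrades ubiquitin-tagged proteins in every cell, were followed in 4 bulk RNA-seq libraries of mouse bone marrow. The members were the protein-coding rows of the count table named Psma, Psmb, Psmc or Psmd followed by a number, without the immunoproteasome genes Psmb8, Psmb9 and Psmb10. This gave 36 of the 55399 genes listed. Of these, 16 encode the core particle (8 Psma and 8 Psmb genes) and 17 the regulatory particle (6 Psmc and 11 Psmd genes). The remaining 3, Psmd5, Psmd9 and Psmd10, carry subunit names but encode chaperones that help to assemble the regulatory particle and leave it, so they are given apart. The rule used names only and no measured value, but it was set with earlier results of these data known.

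All 4 libraries were labelled as Lsk cells, a shorthand in common use for marrow stem and progenitor cells that lack lineage markers and carry Sca-1 and Kit. Of these, 2 came from Ppm1bfl/fl mice, in which both Ppm1b alleles are flanked by loxP sites, and 2 from Ppm1bCKO mice, the conditional knockout. Ppm1b encodes a metal-dependent serine/threonine phosphatase, and the comparison asks which transcripts differ with its genotype. Neither the Cre line, nor the age of the mice, nor whether replicates came from separate mice is stated in the labels. The p-values therefore speak of the spread among these 4 libraries, which may be technical.

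The proteasome is built from a barrel and a cap. The barrel, or core particle, stacks outer rings of alpha subunits, which gate the entrance, on inner rings of beta subunits, which include the proteolytic sites. The cap, or regulatory particle, has a base with a ring of ATPases that unfold and thread the substrate, and a lid that removes its ubiquitin chain. Subunits are needed in equal numbers within a ring, and their genes are known to be raised together by the transcription factor NRF1 (gene Nfe2l1) when proteasome activity is short.

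Because the members are regulated together in other settings, stretches of their promoters were read for the antioxidant response element that NRF1 and NRF2 bind with small MAF proteins. RefSeq promoter windows of 300 bases (GRCm38.p6, the same assembly as mm10) were matched by symbol for 29 of the 36 members, in 31 windows. The letters TGACNNNGC on either strand were found in 5 of the 31 windows, or 16.1%, against 12.4% of all 32851 windows of the same length. They were found in 2 of 12 matched core genes (Psmb5 and Psmb6), 2 of 14 regulatory particle genes (Psmc6 and Psmd12) and 1 of 3 chaperone genes (Psmd9). The longer form TGACTCAGC, which overlaps the first, was in 0 member windows and in 0.454% of all windows. A match here is a description of letters only, and the share among members was close to that of all promoters. The stretches below are shown for the catalytic genes Psmb5 and Psmb6, for Psma5 and Psmc6, which had the highest log2 fold changes of their particles, and for Psmd2, among the lowest. Each runs 5′ to 3′ on the gene's strand and ends before the annotated start, and capitals mark TGACNNNGC or its reverse complement.
Psmb5 (chr14:54618023-54618245, minus strand): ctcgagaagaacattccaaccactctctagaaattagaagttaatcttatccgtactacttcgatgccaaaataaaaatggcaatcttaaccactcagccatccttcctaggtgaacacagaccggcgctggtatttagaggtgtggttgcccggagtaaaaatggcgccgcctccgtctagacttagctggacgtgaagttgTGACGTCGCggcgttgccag
Psmb6 (chr11:70525107-70525356, plus strand): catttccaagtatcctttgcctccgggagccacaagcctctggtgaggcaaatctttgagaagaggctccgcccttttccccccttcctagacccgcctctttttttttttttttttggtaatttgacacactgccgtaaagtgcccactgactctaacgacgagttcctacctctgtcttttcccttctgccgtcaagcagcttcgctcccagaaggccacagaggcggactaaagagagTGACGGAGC
Psma5 (chr3:108256676-108256925, plus strand): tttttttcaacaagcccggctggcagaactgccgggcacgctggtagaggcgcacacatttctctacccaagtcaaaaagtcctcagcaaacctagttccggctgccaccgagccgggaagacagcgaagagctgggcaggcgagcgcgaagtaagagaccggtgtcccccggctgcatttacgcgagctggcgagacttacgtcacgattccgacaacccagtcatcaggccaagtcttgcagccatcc
Psmc6 (chr14:45329574-45329787, plus strand): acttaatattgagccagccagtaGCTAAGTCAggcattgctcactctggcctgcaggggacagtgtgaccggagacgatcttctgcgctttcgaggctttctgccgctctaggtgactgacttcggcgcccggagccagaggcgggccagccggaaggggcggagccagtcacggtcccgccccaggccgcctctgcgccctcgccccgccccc
Psmd2 (chr16:20651402-20651651, plus strand): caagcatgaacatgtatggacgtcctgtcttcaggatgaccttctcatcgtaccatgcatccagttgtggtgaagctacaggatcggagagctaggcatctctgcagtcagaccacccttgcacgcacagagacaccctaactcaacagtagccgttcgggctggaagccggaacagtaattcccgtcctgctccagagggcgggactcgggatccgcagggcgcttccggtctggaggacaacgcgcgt
In Psmb5 the match began 47 bases before the RefSeq start, in Psmb6 9 bases before it and in Psmc6 227 bases before it. The windows of Psma5 and Psmd2 held no match to these letters. The median G+C content was 56.7% over the member windows and 52.7% over all windows.

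Total counts ran from 22393973 to 30045382 per library, and 16393 genes were tested. Levels are in CPM, counts scaled to each library's TMM-normalised size. The targeted gene Ppm1b had 80.8 and 82.5 CPM in the Ppm1bfl/fl pair, and the pair labelled Ppm1bCKO had 84.3 and 121 CPM. Each direction below therefore rests on the labels, and counts over the whole gene do not show whether a part of it was deleted. Ppm1bCKO replicate 2 stood apart from the other libraries. Its deviation from the gene's mean over the 4 libraries went down with exonic length over all tested genes (Spearman's rho -0.34, across genes), where the other libraries had rho from 0.15 to 0.22. Markers of mature cells also moved with the libraries. In the order Ppm1bfl/fl replicates 1 and 2, then Ppm1bCKO replicates 1 and 2, the summed level of 6 B cell markers was 173, 176, 262 and 556 CPM. That of 3 eosinophil granule genes was 2309, 2439, 3362 and 5668 CPM. That of 8 plasma cell genes was 21610, 12953, 3997 and 5378 CPM, of which Igha made up 10296, 6227, 1628 and 1868 CPM. Igkc made up another 8609, 5127, 1711 and 2638 CPM. Of the 8 plasma cell genes 0 had a positive log2 fold change, and Xbp1 was at -0.01. The sum of 8 Lsk and progenitor genes ran from 560 to 762 CPM and that of 8 erythroid genes from 8193 to 17386 CPM. That of 9 macrophage genes was 694 and 721 CPM in the Ppm1bfl/fl pair and 404 and 521 CPM in the Ppm1bCKO pair. Of these 9 genes 0 had a positive log2 fold change, with a median of -0.47, from -1.23 (Mertk) to -0.02 (Adgre1). The edgeR test called 0 of the 9, beside 0.372% of all tested genes. The neutrophil sum ran from 3883 to 4736 CPM and the T and NK cell sum from 119 to 172 CPM. In every library the erythroid, neutrophil, plasma cell and eosinophil sums were above the Lsk and progenitor sum. Sums over different genes do not give shares of cells. The sum of 5 plasmacytoid dendritic cell markers ran from 555 to 776 CPM, of which Irf8 made up 372 to 439 CPM. All 5 had a positive log2 fold change, with a median of 0.99, and Siglech had 24.91 and 19.96 CPM in the Ppm1bfl/fl pair and 47.4 and 50.4 CPM in the Ppm1bCKO pair. Kit, which with Sca-1 defines the labelled cells, had 228 and 194 CPM in the Ppm1bfl/fl pair and 187 and 121 CPM in the Ppm1bCKO pair, and the Sca-1 gene Ly6a ran from 17.7 to 22.2 CPM. No marker in these lists was at 0 in any library. Their part in the proteasome values was not tested, and in bulk RNA more cells of a type and more RNA per cell cannot be told apart.

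Proteasome transcripts were most abundant in Ppm1bCKO replicate 2 for nearly every member, and no member passed the test of genotype. The 36 genes together made up 4111 and 4525 CPM in Ppm1bfl/fl and 4561 and 5987 CPM in Ppm1bCKO (4318 ± 293 and 5274 ± 1008 CPM, SD, n = 2). Of the 36, 35 passed the filter on low counts, and 0 of these 35 were called (edgeR quasi-likelihood test, Benjamini-Hochberg adjusted p from 0.717 to 0.956), where 0.372% of all tested genes were called. DESeq2 and limma-voom also called 0 members, where they called 1.21% and 0.311% of all tested genes. Without Ppm1bCKO replicate 1, so that replicate 2 alone stood for the genotype, edgeR called 26 of 35 members, where 19.4% of all tested genes were called. At an unadjusted p under 0.05 edgeR gave 2 members, Psma4 and Psma5, a share near the 6.44% of all tested genes. A positive log2 fold change, Ppm1bCKO over Ppm1bfl/fl, was found in 33 of 35 members with a median of 0.32. Over all tested genes 49.6% were positive and the median was -0.00. Ppm1bCKO replicate 2 was the highest library for 33 of the 35 members, and for 36.7% of all tested genes. Members were measured in the same libraries and are not independent.

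**Figure D1:**
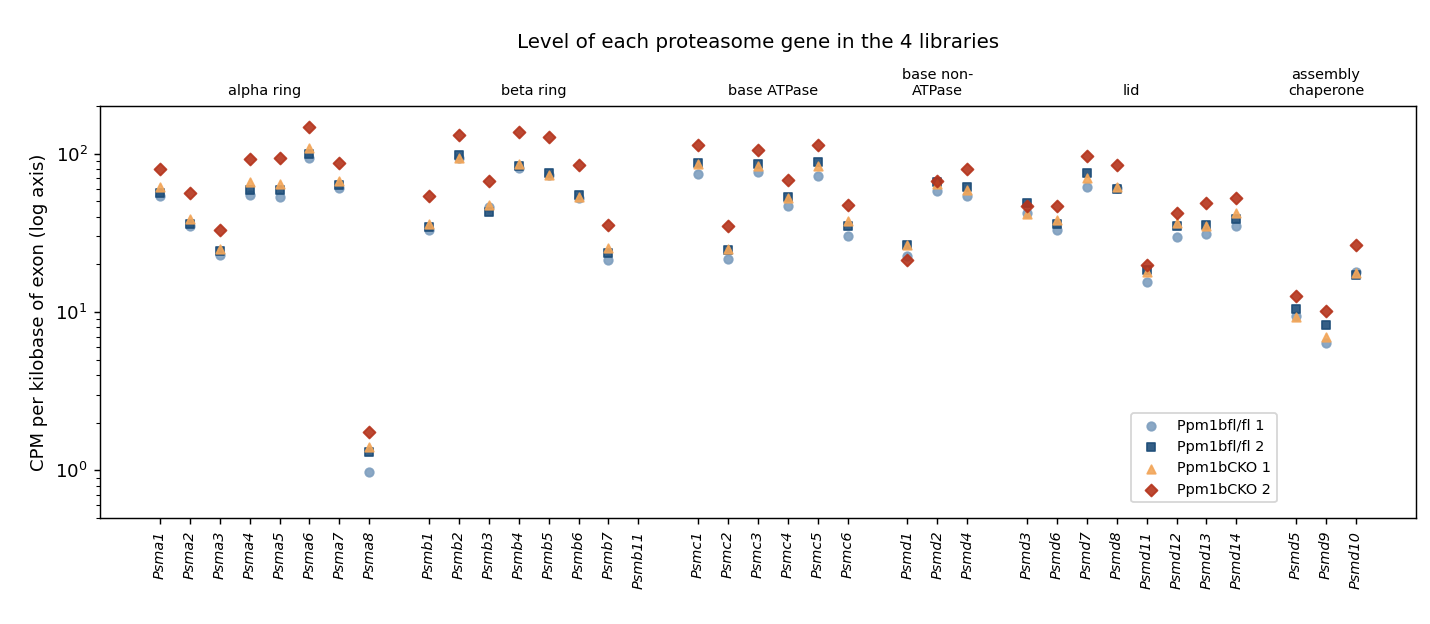
Level of each member in each of the 4 libraries, in CPM per kilobase of exon on a log axis, grouped by role. Ppm1bCKO replicate 2 (diamonds) is the highest library for 33 of the 35 tested members, and Psmb11, with 0 to 3 reads, lies below the axis.

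The alpha ring genes, which form the gate of the core particle, were the only role group with no overlap between the genotypes in any gene. All 8 of them had both Ppm1bCKO libraries above both Ppm1bfl/fl libraries, which was the case for 20.6% of all tested genes. Psma5 (chromosome 3, 108256926 to 108279974, mm10) had 70.8 and 77.6 CPM in the Ppm1bfl/fl pair, beside 85.2 and 125 CPM in the Ppm1bCKO pair, the highest log2 fold change of any member (0.50 ± 0.21, standard error, edgeR adjusted p = 0.717). Psma4 (chromosome 9, 54950790 to 54958030) stood at 130.1 and 140.4 CPM against 158 and 220.0 CPM (0.48 ± 0.20). In both genes the gap from replicate 1 to replicate 2 of Ppm1bCKO was larger than the gap between the genotypes' nearest libraries.

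The lowest log2 fold changes of the alpha ring belonged to Psma3 and Psma7. Psma3 (chromosome 12, 70974621 to 70996347) had 89.1 and 94.2 CPM in the Ppm1bfl/fl pair, beside 98.0 and 128 CPM in the Ppm1bCKO pair (0.30 ± 0.18). Psma7 (chromosome 2, 180036374 to 180042433) stood at 186 and 194 CPM against 206 and 269 CPM (0.32 ± 0.18), without overlap but with Ppm1bCKO replicate 1 close to the Ppm1bfl/fl libraries. Psma6 was the most abundant core gene per kilobase of exon, with a mean of 112 CPM per kilobase. Unscaled for length it had 116 and 123 CPM in the Ppm1bfl/fl pair and 135 and 181 CPM in the Ppm1bCKO pair, without overlap. Its log2 fold change was 0.40 ± 0.19. Psma1 and Psma2 had log2 fold changes of 0.36 and 0.42.

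Psma8 encodes the alpha subunit that takes the place of Psma7 in the proteasome of male germ cells. It was low in every library, at 2.44 and 3.25 CPM in Ppm1bfl/fl and 3.52 and 4.34 CPM in Ppm1bCKO, from 65 to 103 reads. Its log2 fold change of 0.46 ± 0.31 had the largest standard error of the members. Per kilobase of exon it averaged 1.36 CPM, against 26.3 to 112 for Psma1 to Psma7.

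In the beta ring, which includes the proteolytic subunits, Ppm1bCKO replicate 2 stood alone, as it did in most other role groups. Relative to each gene's mean over the 4 libraries, the median beta ring gene was at 0.49 (log2) in that library, -0.13 in Ppm1bCKO replicate 1, and -0.21 and -0.16 in Ppm1bfl/fl. The medians in Ppm1bCKO replicates 2 and 1 were 0.39 and -0.03 for the alpha ring and 0.35 and -0.06 for the base ATPases. They were 0.31 and -0.04 for the lid and 0.38 and -0.15 for the assembly chaperones. The base genes that are not ATPases had 0.07 and 0.0075. Of the 7 tested beta genes all had a positive log2 fold change (0.24 to 0.45), while 4 had libraries without overlap between the genotypes. Those 4 were Psmb1, Psmb3, Psmb4 and Psmb7, and the share of all tested genes higher in Ppm1bCKO without overlap was 20.6%.

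The 3 catalytic genes of the constitutive core differed in this respect. Psmb5 (chromosome 14, 54614119 to 54618022), which encodes the chymotrypsin-like site, had 65.8 and 68.2 CPM in the Ppm1bfl/fl pair, beside 66.1 and 114 CPM in the Ppm1bCKO pair (0.43 ± 0.25). Psmb6 (chromosome 11, 70525367 to 70527858), which encodes the caspase-like site, stood at 97.7 and 102 CPM against 100.4 and 159.8 CPM (0.38 ± 0.22). In both genes Ppm1bCKO replicate 1 lay inside the Ppm1bfl/fl range, and replicate 2 alone carried the difference. Without replicate 2 the log2 fold change of Psmb5 was -0.02. Psmb7 (chromosome 2, 38588036 to 38644087), which encodes the trypsin-like site, stood at 72.9 and 80.9 CPM against 87.1 and 121 CPM (0.44 ± 0.20), so its libraries did not overlap.

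Psmb2, a structural beta subunit, had the lowest log2 fold change of the core particle. It had 113 and 117 CPM in the Ppm1bfl/fl pair, beside 113 and 158 CPM in the Ppm1bCKO pair (0.24 ± 0.19), and at -0.02 without Ppm1bCKO replicate 2. Psmb11 encodes the catalytic subunit found in cortical thymic epithelium. Its 0 and 3 reads in Ppm1bfl/fl and 1 read in each Ppm1bCKO library were at or under the 3 counts that a count of 0 allows, and it was not tested.

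**Figure D2:**
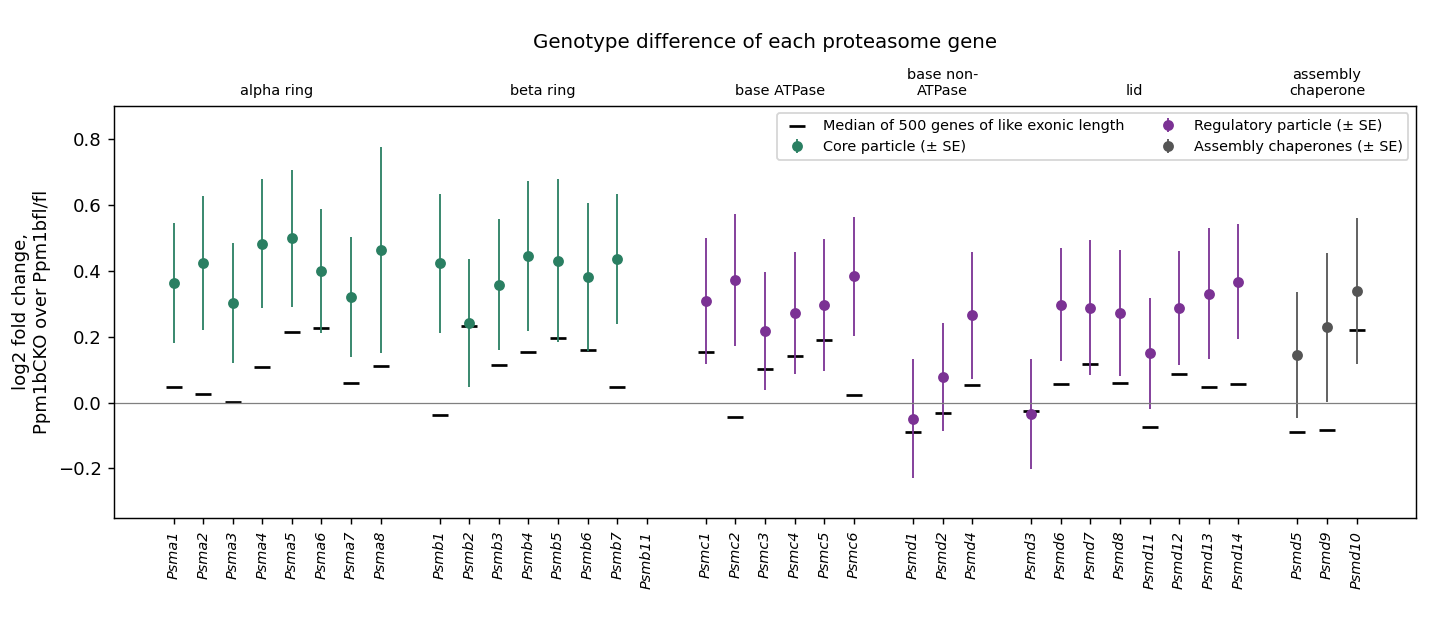
Log2 fold change of each tested member, Ppm1bCKO over Ppm1bfl/fl, with its standard error (2 libraries per genotype), and the median of the 500 tested genes nearest in exonic length (bars). Core particle genes lie between 0.24 and 0.50, regulatory particle genes between -0.05 and 0.38.

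The 6 ATPase genes of the base all had positive log2 fold changes, from 0.22 to 0.38, but their libraries mostly overlapped between the genotypes. Psmc6 (chromosome 14, 45329788 to 45349705) had 105 and 122 CPM in the Ppm1bfl/fl pair, beside 131 and 165 CPM in the Ppm1bCKO pair (0.38 ± 0.18), the highest log2 fold change of the regulatory particle. Psmc2 (chromosome 5, 21785283 to 21803787) stood at 109 and 125 CPM against 126 and 177 CPM (0.37 ± 0.20). These were the 2 of 6 ATPase genes without overlap, a share not far from the 20.6% of all tested genes. For Psmc2 the nearest libraries of the genotypes were close, at 124.7 and 125.8 CPM.

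In the other 4 ATPase genes Ppm1bCKO replicate 1 lay inside the Ppm1bfl/fl range. Psmc1 (chromosome 12, 100110154 to 100123405), the most abundant regulatory particle gene per kilobase of exon, had 145 and 169 CPM in the Ppm1bfl/fl pair, beside 167 and 221 CPM in the Ppm1bCKO pair (0.31 ± 0.19). Psmc3 stood at 201 and 225 CPM against 219 and 276 CPM (0.22 ± 0.18). All 6 ATPase genes were higher in replicate 2 than in replicate 1 of Ppm1bfl/fl, a spread within the control genotype. Psmc4 stood at 101 and 115 CPM against 114 and 147 CPM (0.27 ± 0.18). Psmc5 stood at 100.4 and 124 CPM against 117 and 158 CPM (0.30 ± 0.20).

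The large scaffold subunits of the base, with the lid scaffold Psmd3, had the log2 fold changes nearest to 0. Psmd1 (chromosome 1, 86064387 to 86139151), with 7265 bases the longest member, had 165 and 194 CPM in the Ppm1bfl/fl pair, beside 191 and 155 CPM in the Ppm1bCKO pair (-0.05 ± 0.18, edgeR adjusted p = 0.943). It was the only member that was lowest in Ppm1bCKO replicate 2. Psmd2 (chromosome 16, 20651652 to 20663414), a docking site for ubiquitin and for shuttle proteins, stood at 236 and 266 CPM against 259 and 271 CPM (0.08 ± 0.16). Psmd4, a ubiquitin receptor, had a log2 fold change of 0.26 ± 0.19. The genotypes overlapped for all 3 base genes that are not ATPases, where 20.6% of all tested genes were higher in Ppm1bCKO without overlap.

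Among the 8 lid genes 7 had a positive log2 fold change, and 4 (Psmd6, Psmd8, Psmd12 and Psmd14) had libraries without overlap between the genotypes, beside 20.6% of all tested genes. Psmd14 (chromosome 2, 61711694 to 61800376), which encodes the lid's deubiquitinase, had 98.1 and 109 CPM in the Ppm1bfl/fl pair, beside 119 and 148 CPM in the Ppm1bCKO pair (0.37 ± 0.18). Psmd3 (chromosome 11, 98682554 to 98695979), a lid scaffold, stood at 209 and 241 CPM against 208 and 231 CPM (-0.04 ± 0.17, edgeR adjusted p = 0.956). The Ppm1bfl/fl pair spanned nearly the whole range of the 4 libraries for Psmd3. Psmd11 (chromosome 11, 80428615 to 80473248), which links lid and core, was the least abundant regulatory particle gene per kilobase of exon. It had 99.4 and 118 CPM in the Ppm1bfl/fl pair, beside 115 and 126 CPM in the Ppm1bCKO pair (0.15 ± 0.17). The structural lid genes Psmd6, Psmd7, Psmd8, Psmd12 and Psmd13 lay between 0.27 and 0.33.

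The 3 assembly chaperone genes had low levels per kilobase of exon, at 10.4 (Psmd5), 7.94 (Psmd9) and 19.8 CPM per kilobase (Psmd10). Regulatory particle genes ran from 17.9 (Psmd11) to 90.6 CPM per kilobase (Psmc1), a 5.05-fold range, and core genes other than Psma8 and Psmb11 from 26.3 (Psma3) to 112 (Psma6), a 4.28-fold range. When the longest annotated transcript was used in place of the union of exons, these ranges were 3.29-fold and 5.04-fold, and the lowest core gene was Psmb7, so the order of levels depended on the gene model. Chaperone log2 fold changes were 0.14 (Psmd5), 0.23 (Psmd9) and 0.34 (Psmd10). The genotypes overlapped for all 3, where 20.6% of all tested genes were higher in Ppm1bCKO without overlap.

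Core particle genes had higher log2 fold changes than regulatory particle genes in Ppm1bCKO over Ppm1bfl/fl, with medians of 0.42 over 15 genes and 0.29 over 17 genes. All 15 core genes and 15 of 17 regulatory particle genes were positive. No overlap between the genotypes was seen for 12 of 15 core genes (80.0%) and 6 of 17 regulatory particle genes (35.3%), all higher in Ppm1bCKO, beside 20.6% of all tested genes. Both particles rested mainly on Ppm1bCKO replicate 2. Against the mean of the Ppm1bfl/fl libraries, the median core gene was at 0.66 (log2) in that library and at 0.11 in replicate 1. The median regulatory particle gene was at 0.47 and 0.08. Without replicate 2 the median log2 fold change was 0.11 for core and 0.07 for regulatory particle genes.

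In the difference between the particles the libraries of the genotypes overlapped. Deviations from each gene's mean over the 4 libraries were taken, and the regulatory median was subtracted from the core median in each library. The result was 0.0086 and -0.12 (log2) in Ppm1bfl/fl and 0.0052 and 0.11 in Ppm1bCKO, or -0.05 ± 0.09 and 0.06 ± 0.08 (SD, n = 2). Ppm1bfl/fl replicate 1 lay just above Ppm1bCKO replicate 1, and Ppm1bCKO replicate 2 above both. The means were further apart than the SD of either genotype, with 2 libraries in each, and no test was made of this difference. Between the Ppm1bfl/fl libraries the median regulatory particle gene was 0.20 higher in replicate 2, and the median core gene 0.06 higher. The level of the core particle summed per kilobase of exon was 777 and 811 CPM per kilobase in Ppm1bfl/fl and 850 and 1232 in Ppm1bCKO. That of the regulatory particle was 766, 876, 862 and 1090 in the same order. The ratio of the sums was 1.01 and 0.926 in Ppm1bfl/fl and 0.985 and 1.13 in Ppm1bCKO (0.970 ± 0.062 and 1.06 ± 0.10, SD, n = 2). Ppm1bCKO replicate 1 lay inside the Ppm1bfl/fl range and replicate 2 above it.

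**Figure D3:**
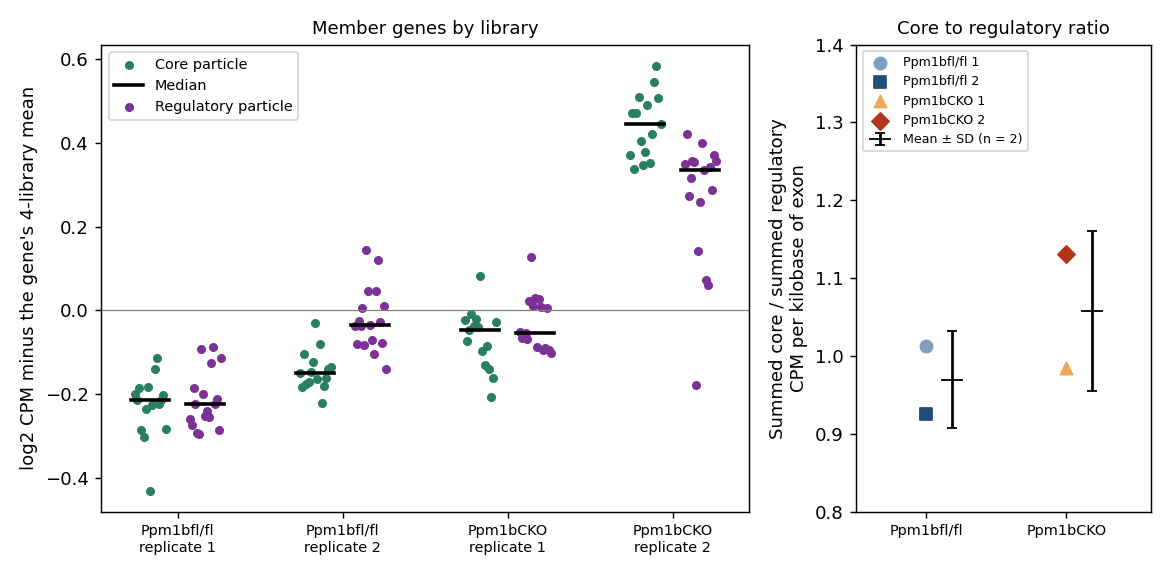
Left, log2 CPM of each tested core and regulatory particle gene minus that gene's mean over the 4 libraries, with the median of each particle (bars). Right, summed core over summed regulatory level per library with the mean and SD of each genotype (n = 2), where Ppm1bCKO replicate 1 (0.985) lies between the Ppm1bfl/fl libraries (0.926 and 1.01) and replicate 2 at 1.13.

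Exonic length moved with these values. Over all tested genes the log2 fold change went down with exonic length (Spearman's rho -0.26, 16393 genes), from a median of 0.22 for 1000 to 1500 bases, the highest bin, to -0.16 above 7000 bases. The shortest genes, up to 1000 bases, which include Psmb5, had a median of 0.12. Over the 35 tested members rho was -0.39. It was -0.10 over the 15 core genes and -0.26 over the 17 regulatory particle genes. With the longest transcript in place of exonic length, rho was -0.44 over the members. It was then 0.09 over the core genes, of the opposite sign, and -0.35 over the regulatory particle genes. These genes share the same libraries, and the coefficients are descriptions. Core genes were shorter, with a median of 2370 bases against 2820 for the regulatory particle and 3753 for all tested genes. The members nearest to 0 were long: Psmd1 with 7265 bases, Psmd3 with 4967 and Psmd2 with 4038. Other long members were Psmc2, with 5031 bases and a log2 fold change of 0.37, and Psmb1, with 4595 bases and 0.42, while the short Psmb2, with 1204 bases, had 0.24.

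Set beside the 500 other tested genes nearest in exonic length, 34 of 35 members had a higher log2 fold change than the median of those genes. The median excess was 0.29 over the core genes (15 of 15 positive) and 0.20 over the regulatory particle genes (16 of 17 positive). The exception was Psmd3, at -0.01, and Psmb2 was level with genes of its length at 0.01. The largest excess was 0.46, in Psmb1. When members were split at 4000 bases, a limit chosen after their values were seen, the 14 shorter core genes had a median of 0.41 and the 12 shorter regulatory particle genes 0.29, where all tested genes up to that length had 0.10. The 5 longer regulatory particle genes had a median of 0.08, against -0.09 for all longer genes, and Psmb1 was the only longer core gene tested. With each library's trend with exonic length removed before the fit, the medians were 0.29 for core and 0.19 for regulatory particle genes, and edgeR still called 0 members (adjusted p from 0.624 to 0.998), where it called 0.336% of all tested genes.

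**Figure D4:**
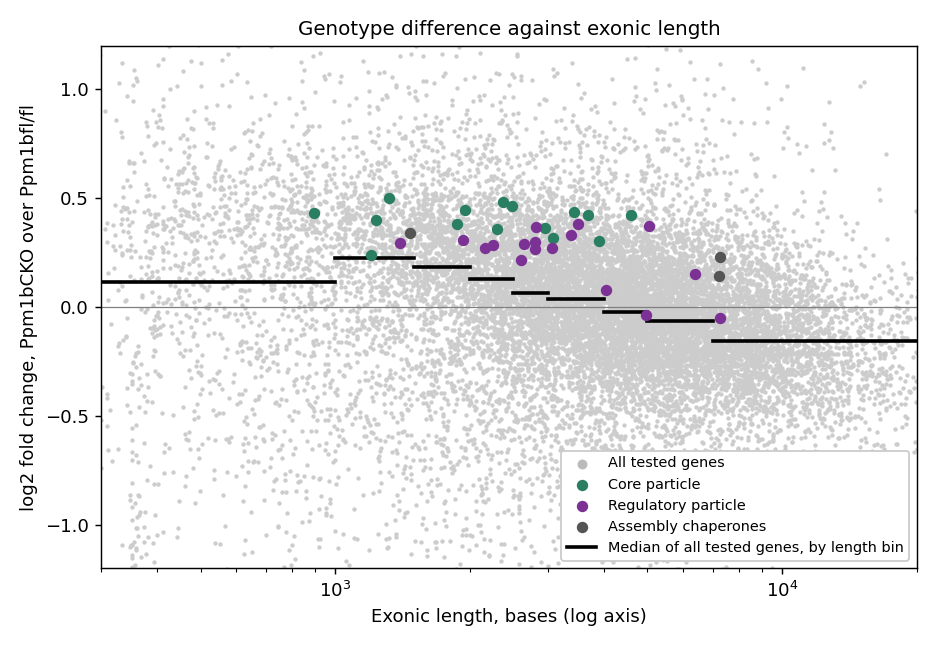
Log2 fold change, Ppm1bCKO over Ppm1bfl/fl, against exonic length (log axis) for all tested genes within the axis limits, with core, regulatory and chaperone members coloured and the median of all tested genes in each length bin as black bars. The bars go from 0.12 up to 1000 bases to 0.22 at 1000 to 1500 bases and then down to -0.16 above 7000 bases, and members lie mostly above them.

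The other genes of the pathway were read from lists of 48 genes in all, and edgeR called 0 of them, beside 0.372% of all tested genes (4 at an unadjusted p under 0.05, beside 6.44%). Limma-voom also called 0, and DESeq2 called 1, Rps27a, beside 1.21% of all tested genes. With no low-count filter edgeR called Rps27a alone of the 48, beside 1.1% of all tested genes. With the replicate number as a block edgeR again called only Rps27a, beside 1.26% of all tested genes. Without Ppm1bCKO replicate 1, edgeR called 18 of the 48, beside 19.4% of all tested genes. Among the 5 core assembly chaperones all had a positive log2 fold change, with a median of 0.46, close to that of the core particle. Pomp, which promotes maturation of the core particle, had 87.9 and 88.6 CPM in the Ppm1bfl/fl pair, beside 103 and 155 CPM in the Ppm1bCKO pair (0.55 ± 0.21, edgeR adjusted p = 0.717). Psmg3 was the highest of the list at 0.76 ± 0.33, from 4.91 to 11.3 CPM, and Psmg2 the lowest at 0.35 ± 0.23. Both had their highest value in Ppm1bCKO replicate 2.

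Of the 2 regulatory particle subunits with other names, the short protein gene Sem1 had 94.3 and 83.2 CPM in the Ppm1bfl/fl pair, beside 96.9 and 162 CPM in the Ppm1bCKO pair (0.54 ± 0.24). The ubiquitin receptor gene Adrm1 had a log2 fold change of 0.13 ± 0.17. Activator genes were uneven. Psme2, which with Psme1 encodes the interferon-inducible activator cap, stood at 63.4 and 63.4 CPM against 73.3 and 112 CPM (0.55 ± 0.22). The lowest of the 6 genes was Ecpas, which encodes a proteasome-binding adaptor (-0.07 ± 0.17), and the inhibitor gene Psmf1 had 0.05 ± 0.18.

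Nfe2l1, the regulator gene, differed in direction from the subunit genes without passing the test. It had 114 and 112 CPM in the Ppm1bfl/fl pair, beside 105 and 90.3 CPM in the Ppm1bCKO pair (-0.21 ± 0.16, edgeR adjusted p = 0.736), and was lowest in the library where the subunit genes were highest. Ddi2, the protease that cleaves NRF1, was the lowest of its 8-gene list at -0.39 ± 0.19, and the small MAF gene Maff the highest at 0.26 ± 0.21. Nfe2l1 and Ddi2 have exonic lengths of 5441 and 9553 bases, in the range where all tested genes had medians below 0. Among ubiquitin genes Rps27a, which encodes ubiquitin fused to a ribosomal protein, stood at 346 and 479 CPM against 576 and 968 CPM (0.90 ± 0.28, edgeR adjusted p = 0.560, and 0.045 by DESeq2). The activating enzyme gene Uba1 was the lowest of those 6 genes at -0.12 ± 0.18.

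Proteasome-bound enzymes and shuttles lay around 0, with 3 of 10 positive and a median of -0.07. The deubiquitinase gene Uchl5 was highest at 0.33 ± 0.17 and the shuttle gene Ubqln4 lowest at -0.23 ± 0.17. The segregase p97 and its cofactors had 6 of 8 positive and a median of 0.12, from -0.07 (Nploc4) to 0.34 (Ubxn1).

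The immunoproteasome genes, whose products replace the catalytic core subunits, had log2 fold changes of 0.36 (Psmb8), 0.35 (Psmb9) and 0.49 (Psmb10). Of these 3 genes 0 were called by edgeR (adjusted p = 0.717), beside 0.372% of all tested genes. The level of Psmb8 over that of Psmb5, each per kilobase of exon, was 0.350 and 0.313 in Ppm1bfl/fl and 0.389 and 0.274 in Ppm1bCKO, so the Ppm1bCKO libraries lay on either side of the Ppm1bfl/fl pair. With the longest transcript in place of the union of exons it was 0.621, 0.556, 0.689 and 0.485 in the same order. The level of Psmb10 over that of Psmb7 was 1.87 and 1.73 in Ppm1bfl/fl and 1.75 and 1.95 in Ppm1bCKO. That of Psmb9 over Psmb6 was 0.332, 0.342, 0.367 and 0.307, again with the Ppm1bCKO libraries on either side. With the longest transcript Psmb9 over Psmb6 was 0.218, 0.224, 0.240 and 0.201. Psmb10 over Psmb7 was then 2.02, 1.87, 1.89 and 2.11. The size of these ratios therefore depended on the gene model.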

How the data were processed

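RNA was extracted with TRIzol from pre-sorted cells and libraries were made with a TruSeq kit, per the labels' protocols. The build mm10 and the tools featureCounts 2.0.1, HISAT2 2.2.0 and Trim Galore 0.6.7 are named in the submitters' processing notes. Values in the deposited table were unnormalised counts, 1 whole number per gene and library, beside an exonic length that equalled the union of the gene's listed exons. How reads were assigned (strand, multiple hits and gene annotation release) is not given in the sources used here. Exons of 8 members (Psma4, Psma5, Psmb5, Psmb7, Psmc3, Psmd1, Psmd3 and Psmd13) overlap another gene by 0.342% to 12.1% of their length, so reads there may have been lost or shared. Named pseudogene rows of the family held at most 5 reads.

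Identifiers were matched without version to GENCODE M21 of the same build (55139 of 55399 genes). The test of genotype was that of edgeR 4.0.16, run in R 4.3.3 (TMM, filterByExpr with minimum count 10 and minimum total 15, robust quasi-likelihood, no covariate), and p-values were adjusted over 16393 genes at a threshold of 0.05. Standard errors are the absolute log2 fold change over the square root of F. CPM is TMM-normalised, and levels of genes are compared per kilobase of exon. A gene with 0 counts could have up to 3, which is 0.0995 to 0.132 CPM by library, from counting error only. Columns of other samples numbered 0. The assembly gene Paaf1 was not analysed here.

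The members and lists were chosen with earlier results of these data known. Values in every library are given for Psmb5, Psmb6, Psmb7 and the 6 Psmc genes, and in each particle for the 3 highest and 3 lowest log2 fold changes and the most and least abundant gene per kilobase. Any member called was to be named as well. In other lists the highest, the lowest and any called gene are named, with Nfe2l1 and Pomp. Genes named beyond this were chosen after their values were seen. Alternatives were DESeq2 size factors, DESeq2 1.42.0, limma-voom (limma 3.58.1), 2 other filters, the replicate number as a block, removal of the length trend (lowess span 0.3), immunoglobulin genes left out, each library left out, and other gene models and summaries for the particle ratio.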

Additional observations from a re-analysis of the deposited data

How the results depend on the processing

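Without Ppm1bCKO replicate 1, the count of members called was 26 of 35 (14 core, 11 regulatory particle and 1 chaperone gene), where 19.4% of all tested genes were called. The genotype is then Ppm1bCKO replicate 2 alone, assumed to vary like the other libraries. In all other alternatives 0 members were called, including the replicate block, so the range over left-out libraries was 0 to 26. Genes called in all numbered 61, and 199 by DESeq2, 311 with no low-count filter, 207 with the replicate block, 0 with immunoglobulin genes left out, and 94 to 3336 with a library left out. Over left-out libraries the core median was 0.11 to 0.65, the regulatory particle median 0.07 to 0.46, and their difference 0.0378 to 0.188, all lowest without Ppm1bCKO replicate 2. The sign reversed for Psmd1 with the length trend removed (0.041). Over all 35 members, 30 were positive without Ppm1bCKO replicate 2, against 33 with all libraries. Among the members with values given in every library, the sign reversed with a library left out for 5, whose ranges were -0.211 to 0.0957 (Psmd1), -0.00892 to 0.165 (Psmd2), -0.139 to 0.0711 (Psmd3), -0.0197 to 0.771 (Psmb5) and -0.0224 to 0.46 (Psmb2). The cause was not tested. With the longest transcript the core to regulatory ratio was 1.094 and 1.001 in Ppm1bfl/fl and 1.066 and 1.23 in Ppm1bCKO. Ppm1bCKO replicate 1 again lay inside the Ppm1bfl/fl range. As a ratio of medians it was 1.26 and 1.14 in Ppm1bfl/fl and 1.36 and 1.58 in Ppm1bCKO, where the genotypes did not overlap. Whether the replicate number marks a pair or a batch is not stated in the labels. Over all tested genes the correlation of the replicate differences in the genotypes was 0.06. The block moved the count of calls from 61 to 207. In Ppm1bfl/fl, replicate 2 was above replicate 1 for 32 of 35 members, beside 49.7% of all tested genes. The median member was 0.15 (log2) higher in replicate 2 of Ppm1bfl/fl and 0.43 higher in replicate 2 of Ppm1bCKO. Whether a shared batch lies behind this was not tested. With 2 libraries per genotype, standard errors of 0.16 to 0.31 (log2) limit what the comparison of members can show.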
